A study of Mus musculus with 20 samples.

Results

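The proteasome genes described here are the 49 of 21937 gene symbols in the RNA table that start with Psm, 1 letter from a to g and a number. They encode the core subunits, the subunits of the regulatory cap, activators, an inhibitor and assembly chaperones. The pattern also caught Psmc3ip, which carries the name of a proteasome gene but encodes a meiotic recombination factor. The RNA came from mouse neurons (strain label 159.2), at day 10, in 2 groups of 2 libraries. One group was treated with 200 µM NMDA, which activates NMDA-type glutamate receptors, and the other with DMSO alone. Treatment lasted 6 h, and both groups were washed with a balanced salt solution before and after it. Whether the replicate libraries derive from different cultures is not labelled, and p-values reflect only the scatter of these 4 libraries, which may be technical.

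The proteasome degrades proteins that carry ubiquitin chains. Its core is a barrel of stacked rings, with alpha subunits at the ends and beta subunits, some of them proteases, inside. A regulatory particle on the end of the barrel binds the ubiquitin chain, removes it, and unfolds the substrate with a ring of ATPases; its other part, the lid, holds the deubiquitinase. In neurons proteasomes are known to move into dendritic spines after NMDA receptor stimulation and to set the protein content of synapses.

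Values are the authors' normalised read counts, that is, reads per gene divided by a size factor for the library. The libraries held 15008112 to 20149813 reads. Counts are not divided by transcript length, so levels are compared between libraries and not between genes. Neuronal markers such as Tubb3 (25719.8 and 28109 normalised counts in the controls) and Mapt (42095 and 44049) had high counts. The fibroblast marker Col3a1 also did (49930.5 and 44801 in the controls), so these counts do not settle the neuronal label. Of 14 pan-neuronal markers 6 fell and 1 rose, and their sum was 196975 and 207897 in the controls and 187424 and 166088 after NMDA. Of 12 fibroblast markers 11 rose (sum 130341 and 119233 in the controls, 240100 and 321796 after NMDA), and of 11 progenitor markers 11 rose (sum 13650 and 16333, then 24784 and 33312). Of 8 astrocyte markers 7 were tested and 5 rose (sum 11980 and 13722, then 16221 and 22658). Of the microglia markers C1qa, C1qc and Tyrobp were at 0 in all 4 libraries and 1 of 10, Tmem119, was tested and rose (123 and 132 in the controls, 198 and 211 after NMDA; list sum 133 and 138, then 212 and 222). Of 6 endothelial markers 4 were tested and 1 rose (sum 319 and 298, then 442 and 554), and of 8 oligodendrocyte markers 5 were tested, of which 2 rose and 1 fell (sum 1117 and 993, then 1156 and 1208). Leaving out 1 library gave 9 to 12 fibroblast, 5 to 11 progenitor and 1 to 6 astrocyte rises, each fewest with control replicate 1 left out, and 4 to 9 neuronal falls, fewest with either control left out. In bulk RNA, fewer cells of a type and less RNA per cell cannot be told apart, and the part of these markers in the results below was not tested.

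The comparison asked how the RNA of each proteasome gene differed after NMDA. Changes were small: no member moved by as much as 2-fold, as 787 of the 13888 tested genes did. Core genes lay mostly above their control level (median log2 change 0.18) and regulatory particle genes around or below it (median -0.04, but 0.071 with quantile normalisation). Of the 49 members 48 had a mean of at least 10 normalised counts and were tested. At an adjusted p under 0.05 (limma, Benjamini-Hochberg over all genes), 10 rose and 4 fell, while 34 did not pass. In the background of 13888 tested genes 20.5% rose and 21.5% fell, 41.9% in all. The share of members that rose was 20.8%, near the background, but with quantile normalisation, which forces the 4 libraries to 1 distribution, it was 35.4%, against 18.5% of all genes. The share of members that fell was 8.33% (with quantile normalisation 6.25%, against 20.3% of all genes). Members are mostly abundant: 34 had a mean of at least 1000, of which 5 rose (14.7%) and 3 fell (8.82%), where 17.2% of the 4262 genes at that level rose and 34.4% fell, 51.5% in all. That level was chosen after the values were seen. The median log2 change of the members was 0.10, beside -0.01 for all tested genes and -0.12 for genes with a mean of at least 1000. The median size of the change, with sign ignored, was 0.17 for members and 0.32 for all tested genes. The 2 groups did not overlap in 35 of the 48 members (72.9%), with NMDA above in 25 and below in 10. Among all tested genes they did not overlap in 74.5%, with NMDA above in 36.6% and below in 37.8%.

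These calls rest on both control libraries. With control replicate 1 left out, limma called 0 members as risen and 0 as fallen (6 and 2 at an unadjusted p under 0.05). With control replicate 2 left out it called 1 as risen, Psmd10, and 0 as fallen (5 and 3 unadjusted). Leaving out NMDA replicate 1 gave 11 and 6, and leaving out NMDA replicate 2 gave 6 and 4. Quantile normalisation gave 17 rises and 3 falls in place of 10 and 4, while over all genes it gave 2571 and 2815 in place of 2845 and 2979. DESeq2 on the recovered reads gave 6 and 3, and edgeR gave 10 and 4.

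**Figure D1:**
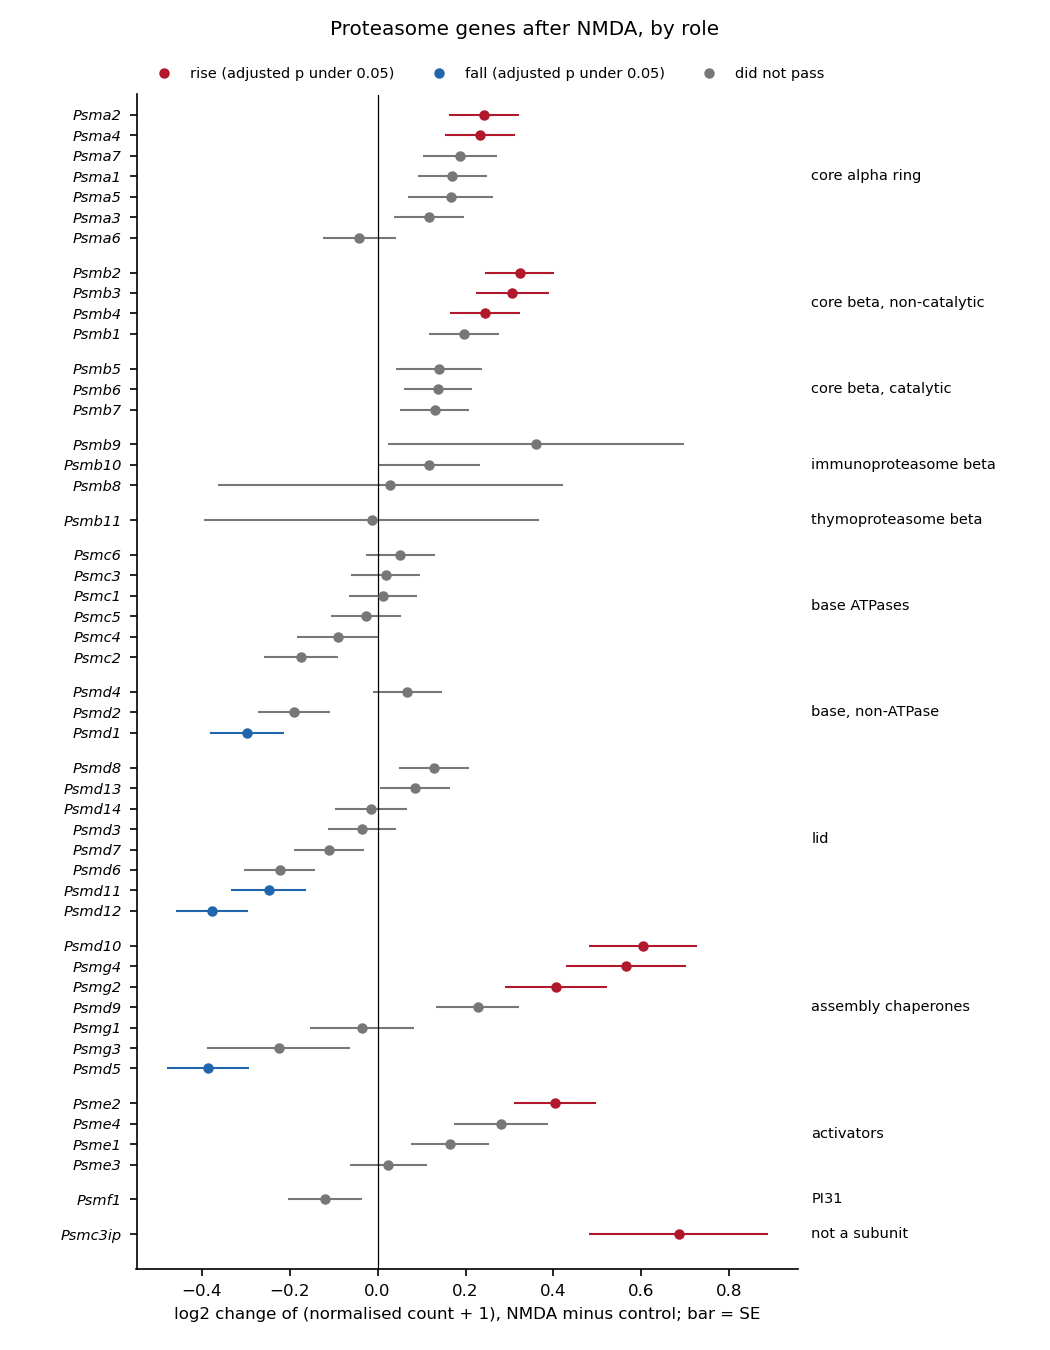
The log2 change of each of the 48 tested proteasome genes (x axis, NMDA minus control on log2 of the normalised count + 1; bars are SE, n = 2 libraries per group), grouped by role, with rises in red, falls in blue and genes that did not pass in grey. Core genes lie mostly to the right of 0, the regulatory particle around or left of it (around or right of it with quantile normalisation, median 0.071), and the assembly chaperones on both sides.

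Core particle genes lay mostly above their control level after NMDA. Of the 14 constitutive core genes 5 rose and 0 fell (0 falls at an unadjusted p under 0.05, and 0 by edgeR and DESeq2), and 13 of 14 had a positive log2 change, with a median of 0.18. The background was 20.5% rises and 21.5% falls over all tested genes (17.2% and 34.4% at a mean of at least 1000). In the alpha ring, which gates the entry to the barrel, Psma2 rose from 1729 and 1811 in the controls to 2072 and 2116 after NMDA (normalised counts), or 0.24 ± 0.08 (SE) on the log2 scale (limma adjusted p = 0.0377). Psma4 rose from 1593 and 1540.0 in the controls to 1819 and 1863 after NMDA (0.23 ± 0.08, limma adjusted p = 0.0434). For these genes each NMDA library lay above each control library. Psma7 was at 2134 and 2270.5 in the controls and 2600.3 and 2415 after NMDA, and its log2 change of 0.19 ± 0.08 did not pass (limma adjusted p = 0.106). Psma1 (0.17), Psma5 (0.17) and Psma3 (0.12) had log2 changes of like sign that did not pass, although their groups did not overlap. Psma6 differed in sign from its ring, at 1812 and 1976 in the controls and 1830.4 and 1846 after NMDA, with a log2 change of -0.04 ± 0.08 that was 0.054 with quantile normalisation and 0.021 without control replicate 2.

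The beta ring held the 3 largest rises of the core, but Psmb4 (0.245) lay barely above Psma2 (0.243) and the order was not tested. Psmb2, a structural subunit of the ring, rose from 1254 and 1283 in the controls to 1592 and 1582 after NMDA, a log2 change of 0.32 ± 0.08 (limma adjusted p = 0.0124). Its NMDA libraries lay close to each other and above both controls. Psmb3, also structural, rose from 1219 and 1300.5 in the controls to 1539.8 and 1576 after NMDA (0.31 ± 0.08, limma adjusted p = 0.0181), and Psmb4 from 2337 and 2461 in the controls to 2857 and 2826 after NMDA (0.24 ± 0.08, limma adjusted p = 0.0362). The fourth structural subunit gene, Psmb1, had a log2 change of 0.20 ± 0.08 that missed the threshold (limma adjusted p = 0.0767) with groups that did not overlap. Of the 14 core genes limma called 0 when control replicate 1 was left out (1 at an unadjusted p under 0.05) and 0 when control replicate 2 was (2 unadjusted). The count was 3 without NMDA replicate 2, when Psma2 and Psma4 lost their calls, and 3 with DESeq2, which dropped the same genes. With quantile normalisation it was 11.

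The promoters of a pair of core genes that rose, Psma2 and Psmb3, are shown because they hold CCAAT, the motif met most often among core genes. They are the 250 bases before the annotated start site in RefSeq (build GRCm38.p6), written 5′ to 3′ on the strand of the gene. The same stretch of Psma4 and Psmb4, which also rose, held no CCAAT, and Psmb2 had no entry. Psma1, Psma3, Psma6 and Psma7, which did not pass, held CCAAT. Capitals mark CCAAT (the box bound by NF-Y, on either strand) and, in Psma2, the palindrome bound by nuclear respiratory factor 1. Psma2 lies at chr13:14612992-14613241, plus strand, and Psmb3 at chr11:97703184-97703433, plus strand.
Psma2: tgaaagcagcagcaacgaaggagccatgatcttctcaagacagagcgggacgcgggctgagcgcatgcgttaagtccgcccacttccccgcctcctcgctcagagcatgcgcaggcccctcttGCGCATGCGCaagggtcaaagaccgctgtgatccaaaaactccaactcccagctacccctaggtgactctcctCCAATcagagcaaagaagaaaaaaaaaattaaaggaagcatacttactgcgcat
Psmb3: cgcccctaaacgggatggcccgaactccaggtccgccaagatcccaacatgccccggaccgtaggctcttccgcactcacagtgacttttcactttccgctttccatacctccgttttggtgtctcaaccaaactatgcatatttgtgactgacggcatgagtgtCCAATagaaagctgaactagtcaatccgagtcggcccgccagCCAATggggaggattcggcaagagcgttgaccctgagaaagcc

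The genes of the protease subunits had log2 changes of 0.13 to 0.14, and none of the 3 passed (limma, 0 at an unadjusted p under 0.05, and 0 by edgeR and DESeq2). Over all tested genes 41.9% passed, and 51.5% of those with a mean of at least 1000. Psmb5, the chymotrypsin-like subunit and the target of proteasome inhibitor drugs, was at 1405 and 1566 in the controls and 1743 and 1535 after NMDA, with groups that overlapped and a log2 change of 0.14 ± 0.10 (95% interval -0.08 to 0.36). Psmb6, the caspase-like subunit, was at 2257 and 2341 in the controls and 2548 and 2510.2 after NMDA (0.14 ± 0.08, 95% interval -0.04 to 0.32). Psmb7, the trypsin-like subunit, was at 2981 and 2987 in the controls and 3338 and 3195 after NMDA (0.13 ± 0.08, 95% interval -0.05 to 0.31). With quantile normalisation 2 of the 3, Psmb6 and Psmb7, passed. The reference table lists pseudogenes named after Psma5, Psmb5, Psmb6 and Psmb7, and reads of a gene and a near-identical copy cannot be told apart here.

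Of the genes of the interferon-inducible subunits, which replace the protease subunits in the immunoproteasome, 0 of 3 passed (limma, 0 at an unadjusted p under 0.05, and 0 by edgeR and DESeq2). Over all tested genes 41.9% passed. Psmb8 and Psmb9 were low. Psmb8 was at 14.4 and 11.98 in the controls and 11.4 and 15.7 after NMDA, and Psmb9 at 16.2 and 26.4 in the controls and 26.3 and 27.3 after NMDA, so their log2 changes of 0.03 ± 0.39 and 0.36 ± 0.34 have wide errors. The sign of Psmb8 turned with quantile normalisation (-0.098), without control replicate 2 (-0.092) and without NMDA replicate 2 (-0.19). Psmb10 was at 314 and 296 in the controls and 344 and 318 after NMDA (0.12 ± 0.11, limma adjusted p = 0.442). Relative to the sum of Psmb5, Psmb6 and Psmb7, the summed counts of the 3 inducible genes were 5.19% and 4.85% in the controls and 5.01% and 4.98% after NMDA, so the groups overlapped. Most of the inducible sum came from Psmb10 (control mean 305 of a summed mean of 339). Psmb11, which encodes the thymus-specific subunit, was at 26.0 and 14.4 in the controls and 17.6 and 21.0 after NMDA, and its log2 change of -0.01 ± 0.38 turned to 0.39 with control replicate 1 left out and to 0.11 with NMDA replicate 1 left out. Psma8, the testis-specific alpha gene, was below the level tested, with 1 recovered read in NMDA replicate 1 and 0 in the other libraries. A count of 0 allows up to 3 reads, or 2.69 and 3.59 normalised counts in the controls. This limit covers counting error.

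Genes of the regulatory particle lay around or below their control level after NMDA in the deposited scaling, but not with quantile normalisation. Of the 17 with a Psm symbol, 0 rose (0 at an unadjusted p under 0.05, and 0 by edgeR and DESeq2) and 3 fell. With quantile normalisation 1 rose, Psmd8, and 2 fell. The 17 do not include Shfm1, a lid gene outside the symbol pattern, which rose (0.71 ± 0.09, limma adjusted p = 0.00104). The median log2 change of the 17 was -0.04 (0.071 with quantile normalisation), and 11 of 17 had a negative log2 change (7 with quantile normalisation). Over all tested genes 20.5% rose and 21.5% fell. Genes with a mean of at least 1000, a level that each of the 17 reached, had a median of -0.12, and 17.2% rose and 34.4% fell. In the base, Psmd1, a scaffold subunit, fell from 5508 and 5392 in the controls to 4622 and 4252 after NMDA (normalised counts), a log2 change of -0.30 ± 0.08 (limma adjusted p = 0.0222). Psmd2, the other large scaffold and a docking site for ubiquitin shuttles, was at 6629.9 and 6629 in the controls and 5919 and 5709 after NMDA. Its groups did not overlap, and its log2 change of -0.19 ± 0.08 missed the threshold (limma adjusted p = 0.094). Psmd4, a ubiquitin receptor, was at 2002 and 1958 in the controls and 2040.2 and 2110.5 after NMDA (0.07 ± 0.08, limma adjusted p = 0.517).

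Among the 6 ATPases that form the unfolding ring, 0 passed (limma, 0 at an unadjusted p under 0.05, and 0 by edgeR and DESeq2). Over all tested genes 41.9% passed, and 51.5% of those with a mean of at least 1000. Psmc1 was at 2655 and 2669 in the controls and 2736 and 2636 after NMDA, with a log2 change of 0.01 ± 0.08 and a 95% interval of -0.17 to 0.19; the sign turned without NMDA replicate 1 (-0.014). Psmc3 (95% interval -0.16 to 0.20), Psmc5 (-0.21 to 0.15), Psmc6 (-0.13 to 0.23) and Psmc4 (-0.30 to 0.12) had intervals that include 0. The estimate for Psmc5 was -0.03 (0.071 with quantile normalisation and 0.0087 without NMDA replicate 2), and that for Psmc4 was -0.09 (0.0014 and 0.00091 in those fits). Psmc2 had the largest difference of the ring, at 2263 and 2372 in the controls and 2140.3 and 1969 after NMDA (-0.17 ± 0.08, limma adjusted p = 0.127). Its call was made without NMDA replicate 1, where 1 ATPase fell.

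In the lid, Psmd12, a structural subunit, fell from 1726 and 1842 in the controls to 1396 and 1352 after NMDA, a log2 change of -0.38 ± 0.08 (limma adjusted p = 0.00766). Psmd11, a lid subunit that clamps the core to the base, fell from 1714 and 1582 in the controls to 1425 and 1350.0 after NMDA (-0.25 ± 0.09, limma adjusted p = 0.0462). For Psmd11 the call was lost in 7 of 13 alternatives, among them TMM rescaling and DESeq2. Psmd6, another lid subunit, was at 1666 and 1621 in the controls and 1374 and 1444 after NMDA and just missed (-0.22 ± 0.08, limma adjusted p = 0.0553). Psmd14, the deubiquitinase, was at 1523 and 1581 in the controls and 1498 and 1574 after NMDA, with groups that overlapped (-0.01 ± 0.08, 95% interval -0.20 to 0.17; 0.091 with quantile normalisation). Psmd8 (0.13) and Psmd13 (0.08) had log2 changes above 0, and Psmd7 (-0.11) and Psmd3 (-0.04; 0.088 with quantile normalisation) below. None of these 4 passed, although Psmd8 did with quantile normalisation (limma adjusted p = 0.0353). Limma gave 0 falls among the 17 genes when control replicate 1 was left out (1 at an unadjusted p under 0.05) and 0 when control replicate 2 was (2 unadjusted). Without NMDA replicate 1 it gave 5. DESeq2 and TMM rescaling gave 2 each.

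The promoters of Psmd11 and Psmd12, which fell, are shown because each holds the motif met most often among regulatory particle genes. Capitals mark the ETS core CCGGAAG on either strand and, near the start of the Psmd12 run, TGACNNNGC, the antioxidant response element that NFE2L1 and NFE2L2 bind. Psmd1 and Psmd5, which also fell, had no ETS core in this stretch. Psmc1, Psmc2, Psmc6, Psmd2, Psmd4 and Psmd6, which did not pass, had it. So did Psmc3ip, which rose and is no regulatory particle gene. Psmd11 lies at chr11:80428365-80428614, plus strand, and Psmd12 at chr11:107479278-107479527, plus strand (GRCm38.p6).
Psmd11: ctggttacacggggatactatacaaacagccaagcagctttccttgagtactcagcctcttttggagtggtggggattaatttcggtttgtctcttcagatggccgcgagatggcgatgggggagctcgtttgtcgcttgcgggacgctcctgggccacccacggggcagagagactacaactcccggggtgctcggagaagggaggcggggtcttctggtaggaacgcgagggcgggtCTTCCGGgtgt
Psmd12: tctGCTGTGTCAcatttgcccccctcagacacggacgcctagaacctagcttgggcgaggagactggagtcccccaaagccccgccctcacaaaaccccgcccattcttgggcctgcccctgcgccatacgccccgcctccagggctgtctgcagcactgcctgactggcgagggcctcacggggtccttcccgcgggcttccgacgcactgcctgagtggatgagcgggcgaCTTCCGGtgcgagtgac

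The counts were also summed over the genes of each part of the complex that have a Psm symbol, so the lid gene Shfm1 is left out. The 14 core genes came to 27185 and 28493 normalised counts in the controls and 31642 and 31248 after NMDA, 12.95% higher on average. The 17 regulatory particle genes came to 42574 and 42906 in the controls and 40501 and 39306 after NMDA, a change of -6.64% (-6.09% with TMM rescaling). Neither for the core nor for the regulatory particle did the groups overlap in the deposited scaling. A sum weighs genes by their counts, and the parts of the regulatory particle changed unequally. The 3 base genes that are not ATPases, with Psmd1 and Psmd2 among them, changed by -12.3%. The 8 lid genes changed by -5.43% and the 6 ATPases by -2.01%. After quantile normalisation, an alternative chosen after seeing the data, the core sum was 21.8% higher, while the regulatory particle sum changed by -0.58% and its groups overlapped (41204 and 41721 in the controls, 41486 and 40959 after NMDA). A lower regulatory particle sum therefore depended on the scaling. The ratio of the sums does not change with a size factor for the library. It was 0.639 and 0.664 in the controls and 0.781 and 0.795 after NMDA, 21.0% higher (18.7% to 23.4% with any 1 library left out, and 22.6% with quantile normalisation). It is a ratio of read counts and not of subunits. All 49 members together came to 78538 and 80265, then 81621 and 80178 (1.89% higher), and here the groups overlapped. Within the core, the alpha genes stood at 92.6% and 93.2% of the beta genes in the controls and at 88.7% and 91.2% after NMDA. With 2 libraries against 2 no permutation of these sums can reach a p under 0.05, and none is given.

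**Figure D2:**
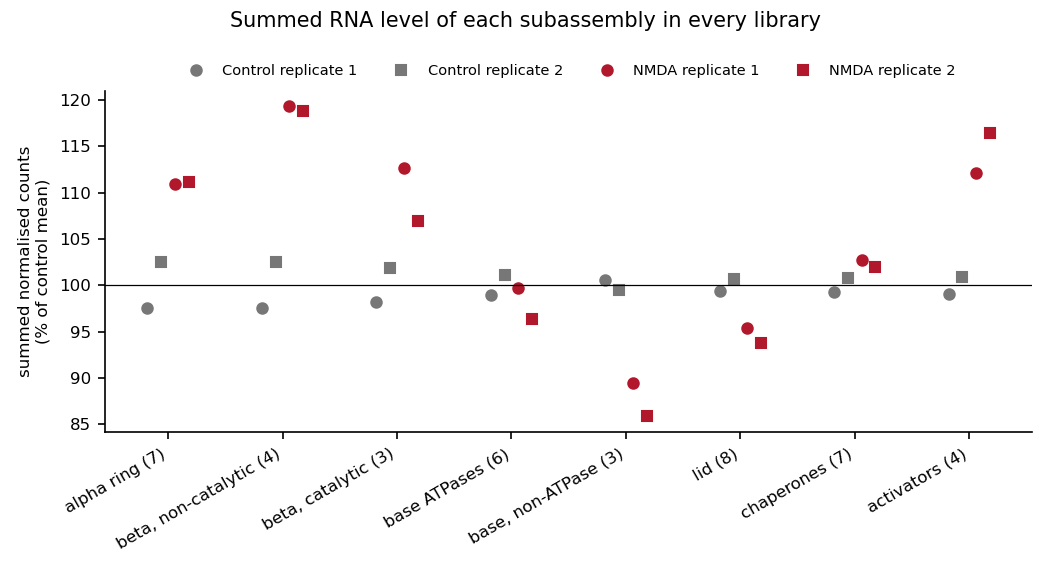
Summed normalised counts of each subassembly in each library, as a percentage of the mean of the controls (y axis; the axis does not start at 0), with controls in grey, NMDA in red and the number of genes in brackets. The alpha and beta sums after NMDA lie above both controls, the base non-ATPase and lid sums lie below both in this scaling (the median log2 change of the lid was 0.035 with quantile normalisation), and the ATPase sums overlap. The lid sum leaves out Shfm1, a lid gene that rose.

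The genes of the assembly chaperones split, with 3 of 7 higher and 1 lower, where 20.5% of all tested genes rose and 21.5% fell. Psmd10, which encodes gankyrin, a chaperone of the base, rose from 181 and 183 in the controls to 273 and 282 after NMDA, a log2 change of 0.60 ± 0.12 (limma adjusted p = 0.0058). Its call held in 12 of 13 alternatives, the exception being the fit without control replicate 1. Psmg4 rose from 155 and 154 in the controls to 218 and 242 after NMDA (0.57 ± 0.14, limma adjusted p = 0.0114), while Psmg3, whose protein pairs with that of Psmg4 under the alpha ring, was at 162 and 196 in the controls and 165 and 141 after NMDA with overlapping groups (-0.22 ± 0.16, limma adjusted p = 0.298). Psmg2 rose from 251 and 243 in the controls to 317 and 339 after NMDA (0.41 ± 0.12, limma adjusted p = 0.0233), and its partner Psmg1 was at 322 and 353 in the controls and 313 and 347 after NMDA (-0.03 ± 0.12, limma adjusted p = 0.838; 0.031 without control replicate 2 and 0.041 without NMDA replicate 1). The difference between the partners of each dimer was not tested. The call of Psmg2 was lost in 5 of 13 alternatives, among them DESeq2 (adjusted p = 0.0885) and quantile normalisation (limma adjusted p = 0.0579). Of the other base chaperones, Psmd5 fell from 1046 and 1017 in the controls to 837 and 744 after NMDA (-0.39 ± 0.09, limma adjusted p = 0.012). Psmd9 was at 493 and 502 in the controls and 579 and 585 after NMDA, a log2 change of 0.23 ± 0.09 that did not pass (limma adjusted p = 0.0837). With control replicate 1 left out the list had 0 rises and 0 falls by limma (3 and 1 at an unadjusted p under 0.05). With control replicate 2 left out it had 1 rise and 0 falls (1 fall unadjusted), and it had 2 rises without NMDA replicate 2, with DESeq2 and with quantile normalisation.

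The promoter of Psmd10, whose call was lost in the fewest alternatives, lies at chrX:140956712-140956961, minus strand (GRCm38.p6) and is shown for its 3 CCAAT boxes, in capitals. Among the other chaperone genes that rose, Psmg4 held no CCAAT in this stretch and Psmg2 had no entry.
Psmd10: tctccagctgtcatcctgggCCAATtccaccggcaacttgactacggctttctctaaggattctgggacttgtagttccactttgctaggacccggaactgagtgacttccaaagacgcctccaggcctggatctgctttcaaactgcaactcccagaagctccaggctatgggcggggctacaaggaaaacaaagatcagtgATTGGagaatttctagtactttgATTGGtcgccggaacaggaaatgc

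The 4 activator genes had log2 changes above 0, and 1 passed, where 20.5% of all tested genes rose. Psme2, which encodes the beta subunit of the interferon-inducible cap PA28, rose from 593 and 605 in the controls to 760.3 and 826 after NMDA (0.40 ± 0.09, limma adjusted p = 0.00968). Psme1, which encodes the alpha subunit of the same cap, was at 1321 and 1478 in the controls and 1585 and 1547 after NMDA (0.16 ± 0.09, limma adjusted p = 0.167). Psme4, which encodes the cap PA200, was at 1360.1 and 1327 in the controls and 1472 and 1809 after NMDA, with NMDA replicate 2 well above replicate 1 (0.28 ± 0.11, limma adjusted p = 0.0648). It passed without NMDA replicate 1 and with quantile normalisation. Psme3, the nuclear PA28 gamma, was at 1494 and 1444 in the controls and 1574 and 1417 after NMDA (0.02 ± 0.09, 95% interval -0.18 to 0.22), and its sign turned without NMDA replicate 1 (-0.052) and without control replicate 2 (-0.00031). Psmf1, which encodes PI31, an inhibitor of the core in vitro, was at 981 and 969 in the controls and 910.4 and 884 after NMDA; the groups did not overlap and the log2 change of -0.12 ± 0.08 did not pass (limma adjusted p = 0.284). Psmc3ip, the meiotic factor, rose from 48.5 and 45.5 in the controls to 74.6 and 77.6 after NMDA, with the largest log2 change of the 48 genes but also a low count (0.68 ± 0.20, limma adjusted p = 0.0265). Its call was lost with DESeq2, with quantile normalisation and without control replicate 1, control replicate 2 or NMDA replicate 2. The call of Psme2 was lost without control replicate 1 or 2.

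**Figure D3:**
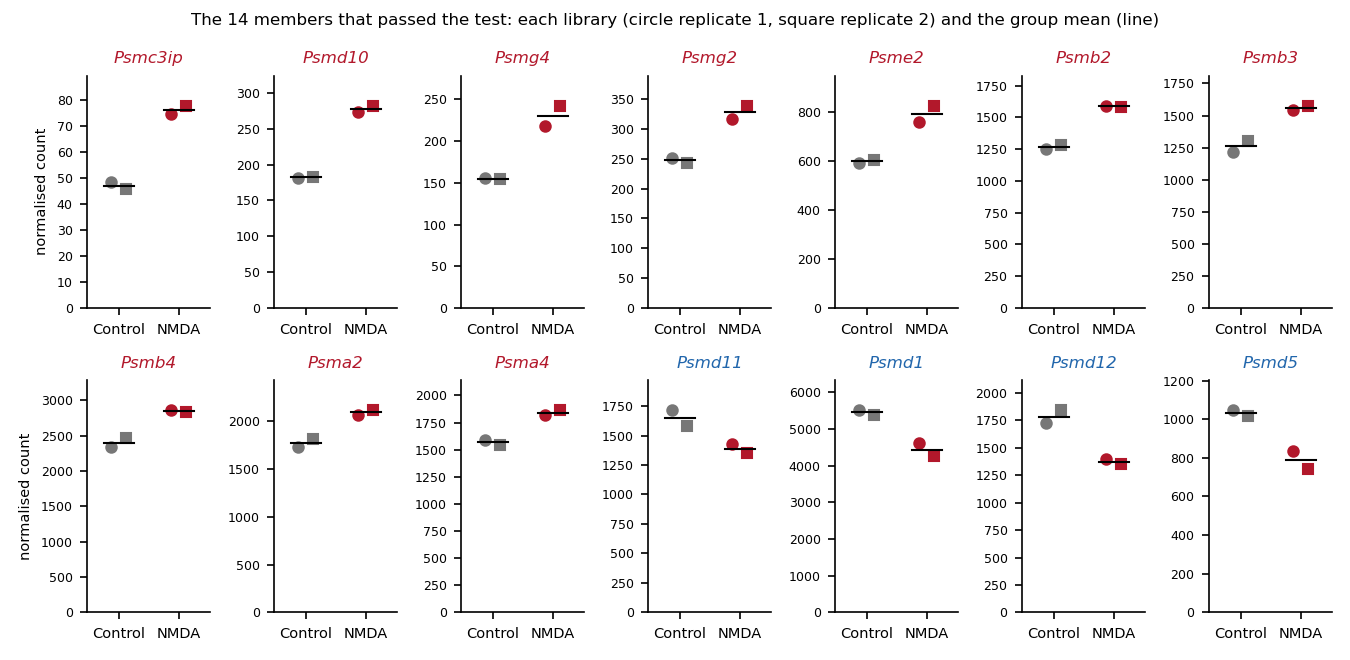
Normalised counts (y axis, from 0) in each library for the 14 genes that passed the test, with controls in grey, NMDA in red, circles for replicate 1, squares for replicate 2 and lines for the group means. In each panel the 2 groups are apart, and the distance between them is largest, relative to the level, for Psmc3ip, Psmd10 and Psmg4.

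The 250 bases before the start site were searched on both strands in 44 windows of the 41 members with an entry (Psma8, Psmb1, Psmb2, Psmb7, Psmc3, Psmd3, Psmd7 and Psmg2 had none) and in all 32851 windows of the table. CCGGAAG, the ETS core, was in 14 member windows (31.8%) and in 6.91% of all windows. It was in 9 of 15 regulatory particle windows (60%) and in 1 of 12 core windows (8.33%), that of a further start site of Psma6. CCAAT was in 15 member windows (34.1%), near the 33.8% of all windows, with 6 of 12 in the core and 4 of 15 in the regulatory particle. TGACNNNGC was in 5 member windows (11.4%, against 10.2% of all), those of Psmb5, Psmb6, Psmc6, Psmd12 and Psmd9. The palindrome of nuclear respiratory factor 1 was in 1 member window, that of Psma2, and in 0.782% of all windows. No match overlapped another in the member windows. A match of letters is a description and no site, and no test was run.

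Other genes of the pathway were taken from lists. The counts of these lists stand beside 20.5% of all tested genes that rose and 21.5% that fell. Of 12 further proteasome-associated genes 2 rose and 5 fell. The rises were those of Shfm1, the small lid subunit SEM1, from 843 and 908 in the controls to 1374 and 1495 after NMDA (0.71 ± 0.09, limma adjusted p = 0.00104), and Pomp, the maturation factor of the core, from 1467 and 1633 in the controls to 1996 and 2107 after NMDA (0.41 ± 0.09, limma adjusted p = 0.0075). Among the falls were Zfand2a, an arsenite-inducible proteasome adaptor (-0.47 ± 0.10, limma adjusted p = 0.00658), and AI314180, the scaffold ECPAS (-0.39 ± 0.08, limma adjusted p = 0.007). Leaving out control replicate 1 gave 1 rise and 0 falls, and leaving out control replicate 2 also gave 0 falls (limma, with 4 falls at an unadjusted p under 0.05 each time).

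Of 8 genes around NFE2L1, the factor that restores proteasome genes when the complex is impaired, 3 rose and 2 fell. The rises were those of the small MAF genes Mafk, from 212 and 244 in the controls to 460.0 and 610.5 after NMDA (1.22 ± 0.15, limma adjusted p = 0.00103), and Maff (1.35 ± 0.29, limma adjusted p = 0.00664), and of Nfe2l2, the oxidative stress factor (0.87 ± 0.15, limma adjusted p = 0.00297). Vcp, the p97 unfoldase, fell from 13598 and 13658 in the controls to 10906 and 10993 after NMDA (-0.32 ± 0.09, limma adjusted p = 0.0218). Nfe2l1, named after its value was seen, fell from 8486 and 7957 in the controls to 7149.6 and 6633 after NMDA (-0.25 ± 0.09, limma adjusted p = 0.0489). Both falls were lost without control replicate 1 or 2 (limma, 0 at an unadjusted p under 0.05 in each), and there was 1 fall without NMDA replicate 2, with edgeR and with TMM rescaling.

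The 6 ubiquitin and E1 genes gave 2 rises and 2 falls. Among the rises was Rps27a, which encodes ubiquitin fused to a ribosomal protein and which was 0.51 ± 0.13 higher on the log2 scale (limma adjusted p = 0.0127). The E1 enzymes that charge ubiquitin fell, Uba6 by a log2 change of -0.59 ± 0.10 (limma adjusted p = 0.00265) and Uba1 of -0.28 ± 0.09 (limma adjusted p = 0.0343). Without control replicate 1 the counts were 0 and 0 (limma, 2 and 1 at an unadjusted p under 0.05). They were 0 and 1 with control replicate 2 left out (2 rises unadjusted).

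Of 13 tested shuttle and p97 adaptor genes 7 fell and 0 rose (0 at an unadjusted p under 0.05, and 0 by edgeR and DESeq2), with a median log2 change of -0.27. In the background 21.5% of all tested genes fell, and 34.4% of those with a mean of at least 1000. The falls included the p97 adaptors Faf2 (-0.47 ± 0.08, limma adjusted p = 0.00282) and Faf1 (-0.30 ± 0.08, limma adjusted p = 0.0157) and the shuttles Ubqln1 (-0.34 ± 0.09, limma adjusted p = 0.015) and Ubqln2 (-0.33 ± 0.09, limma adjusted p = 0.0185). The falls were 0 without control replicate 1 (limma, 3 with an unadjusted p under 0.05), 1 without control replicate 2, 5 without NMDA replicate 2 and 3 with quantile normalisation.

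Of 12 genes of antigen processing and the interferon response, in which the immunoproteasome takes part, 7 rose and 0 fell (limma, 0 falls at an unadjusted p under 0.05, and 0 by edgeR and DESeq2). Rises made up 20.5% of all tested genes and falls 21.5%. The peptide transporter gene Tap2 rose from 66.4 and 55.1 in the controls to 109.7 and 139.5 after NMDA (1.02 ± 0.20, limma adjusted p = 0.0053), Tapbp, tapasin, by 0.57 ± 0.12 (limma adjusted p = 0.00603), Erap1, a peptide-trimming protease, by 0.77 ± 0.17 (limma adjusted p = 0.00851) and H2-K1, a class I heavy chain, by 0.70 ± 0.15 (limma adjusted p = 0.00702). The summed list came to 8091 and 10170 counts in the controls and 10288 and 14209 after NMDA, highest in NMDA replicate 2. That library also had the highest fibroblast, progenitor, astrocyte, microglia, endothelial and oligodendrocyte marker sums and the lowest neuronal sum. A link between these sums was not tested. Rises numbered 1 without control replicate 1 and 4, with 1 fall, without NMDA replicate 2.

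Other large complexes were set beside the proteasome, with the background of 20.5% rises and 21.5% falls over all tested genes. The COP9 signalosome and the translation factor eIF3 share a fold architecture with the lid, and the CCT chaperonin folds actin and tubulin. The COP9 list had 1 rise of 9, Cops7a (0.26 ± 0.09, limma adjusted p = 0.0437), and a median log2 change of -0.03 (0.090 with quantile normalisation and 0.015 without control replicate 1). The rise was lost without control replicate 1, control replicate 2 or NMDA replicate 1, with DESeq2 and with no filter on low values. The eIF3 list had 2 rises of 13, Eif3i (0.37 ± 0.08, limma adjusted p = 0.0097) and Eif3k (0.29 ± 0.09, limma adjusted p = 0.0251), with a median of 0.14. Those rises numbered 0 without control replicate 1 or 2 (limma, 1 and 2 at an unadjusted p under 0.05), 1 without NMDA replicate 2, 5 without NMDA replicate 1, 6 with quantile normalisation and 3 with DESeq2. In the chaperonin list 0 of 8 passed (limma, 0 at an unadjusted p under 0.05, and 0 by edgeR and DESeq2), and the 2 genes of highest level were Cct6a (-0.16 ± 0.08, limma adjusted p = 0.158) and Cct7 (-0.01 ± 0.08, limma adjusted p = 0.932; 0.023 with quantile normalisation, 0.022 without control replicate 2 and 0.013 without NMDA replicate 2). Summed core counts were 175% and 185% of the summed COP9 counts in the controls and 204% and 209% after NMDA. Against the chaperonin they were 66.3% and 65.5%, then 77.5% and 75.8%.

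**Figure D4:**
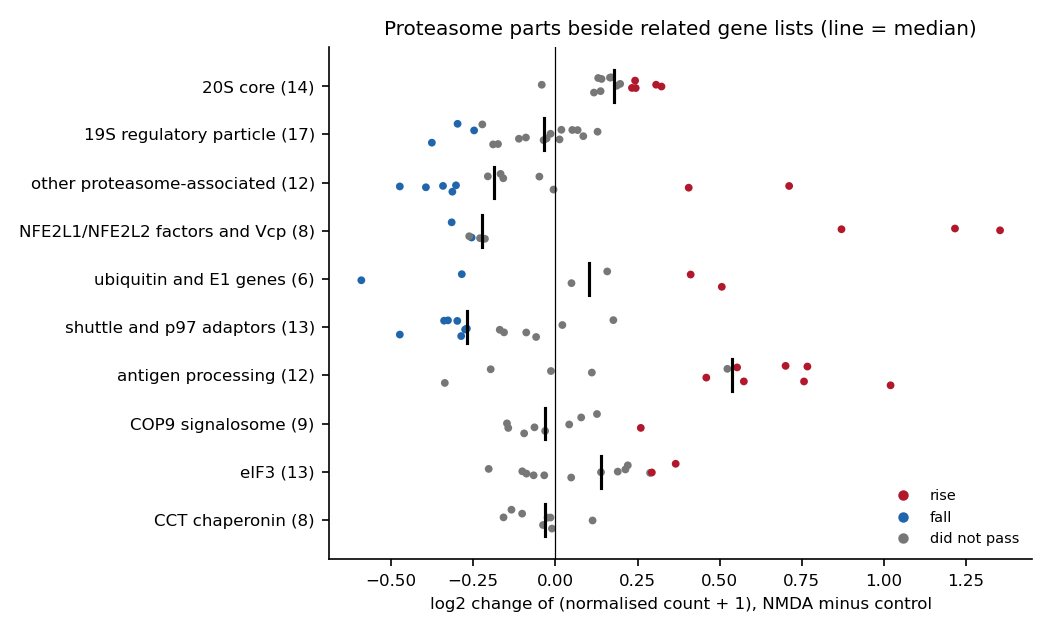
The log2 change (x axis, NMDA minus control on log2 of the normalised count + 1) of each tested gene in the core, the regulatory particle and 8 related lists, with rises in red, falls in blue, genes that did not pass in grey, the number tested in brackets and a line at the median. The core median lies at 0.18, the regulatory particle at -0.04 (0.071 with quantile normalisation) and the antigen processing list at 0.54.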

How the data were processed

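RNA was measured in 4 libraries of day 10 neurons, grouped by their titles into control and NMDA, 2 each. The unit is a signal: read counts per gene that the authors deposited after dividing by a size factor. Per the submitters' processing notes the build was mm9 and the tools TopHat, Bowtie, HTSeq and DESeq; overlapping or antisense genes cannot be told apart, since versions, roles, annotation and strandedness were not given in the sources used here. Dividing each library by the worth of 1 read (0.878 to 1.20) gave whole reads for 99.95% to 100% of values within 0.0051. Libraries of a group differed beyond sampling noise (chi-square over degrees of freedom 4.51 for control and 15.2 for NMDA).

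Genes with a mean of at least 10 entered limma-trend (version 3.58.1 under R 4.3.3) as log2(value + 1); the model held the group alone, 2-sided, Benjamini-Hochberg over 13888 genes, threshold 0.05. On this scale the changes of genes with low values come out too small. Alternatives were edgeR (4.0.16, quasi-likelihood, 2905 rises and 2877 falls over all genes) and DESeq2 (1.42.0, 2249 and 2315) on the recovered reads, other pseudocounts, filters and scalings, a replicate block, and each library left out; the lone library of a group was then assumed to vary like the others. Markers counted were pan-neuronal, progenitor, fibroblast, astrocyte, microglia, endothelial and oligodendrocyte. All members may be named; from other lists, up to 4 genes that passed, by smallest p, or the 2 of highest mean if none did. Members and lists were chosen with earlier results of these data known. Members of lists without a matching symbol, and the chromatin tables, which name no genes, were not used here, and 1 gene that the naming rule selects is not reported here.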

Additional observations from a re-analysis of the deposited data

How the results depend on the processing

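Across the 13 alternatives, the 14 called members kept their direction in each of 182 values, and 43 of these no longer passed. The groups of these 14 genes did not overlap, so most alternatives could not turn a direction. This holds for the pseudocounts, the filters, the replicate block and each library left out. Only a change of scaling could have done so. The members' rises numbered 0 to 11 and falls 0 to 6 with 1 library left out, the rises 17 with quantile normalisation and 6 with DESeq2, and the median log2 change was 0.18 with quantile normalisation and 0.071 to 0.10 with 1 library left out. Over all genes, leaving out 1 library gave 1069 to 3033 rises and 915 to 3334 falls. Such a fit has fewer samples, and no other cause of a change was tested. Of 437 values of members that were not called, 18 passed and 20 changed sign. With quantile normalisation the log2 change turned to 0.054 for Psma6, -0.098 for Psmb8, 0.0014 for Psmc4, 0.071 for Psmc5, 0.091 for Psmd14, 0.088 for Psmd3 and 0.023 for Cct7. With 1 library left out it ran over -0.10 to 0.021 for Psma6, -0.42 to 0.39 for Psmb11, -0.19 to 0.24 for Psmb8, -0.014 to 0.039 for Psmc1, -0.18 to 0.00091 for Psmc4, -0.062 to 0.0087 for Psmc5, -0.051 to 0.021 for Psmd14, -0.052 to 0.10 for Psme3, -0.11 to 0.041 for Psmg1 and -0.042 to 0.022 for Cct7. The replicate number pairs no samples by the labels. Differences between replicates 1 and 2 correlated across genes between the groups (r = 0.343 over 13888 genes, which are not independent). With the replicate block 14 members rose and 5 fell (7 of the core rose and 4 of the regulatory particle fell; Psma7, Psmb1, Psmd6, Psmd9 and Psme4 then passed), and over all genes 3685 rose and 3782 fell. Differences under about 0.2 on the log2 scale were mostly not detectable with 2 libraries per group, since the median SE of a member was 0.08, and Psmb8, Psmb9 and Psmb11 were limited by their low counts.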
